A study of Rattus norvegicus with 12 samples.

Results

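The B cell and plasma cell genes described here are 9 genes chosen by name: Cd79a, Cd79b, Ms4a1, Pax5, Tnfrsf17, Cr2, Cxcr5, Blk and Tnfrsf13c. Their probes were found by the gene name in the annotation of the array by a rule that uses no measured value. The 9 genes themselves were chosen with earlier results of these data known. Of the 9 genes, 8 had a probe, 1 probe each, and all 8 of these probes passed the filter on dim signals. Pax5, which encodes the transcription factor that holds cells in the B lineage, had no probe under that name and is not analysed here. The array annotation gives 22280 gene names, of which 17531 had a probe that was tested.

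B cells recognise antigen through a surface antibody that is bound to the CD79 chains, which carry the signal into the cell. They need the survival factor BAFF and the chemokine CXCL13, which draws them into lymphoid follicles, and after activation some of them become plasma cells, which secrete antibody and depend on the receptor BCMA. The mammary fat pad of rodents holds lymph nodes as well as scattered lymphocytes, and plasma cells that secrete IgA gather in the gland around lactation.

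The arrays measured total RNA of lumbar mammary glands of female Wistar rats, labelled with Cy3 alone, 1 array per rat and 3 rats in each of 4 groups. NP rats were the offspring of mothers on a 17% protein diet during pregnancy, and LP rats those of mothers on an 8.8% protein diet. Litters were reduced to 6 females at birth, mothers of both groups ate standard chow while nursing, and pups suckled until day 21 and were then weaned to that chow. Glands were taken at day 21 or day 28 of life. Visible lymph nodes were removed from the glands before freezing. The groups are NP day 21 (replicates 4a, 5a and 6a), LP day 21 (4a, 6a and 7c), NP day 28 (4f, 5f and 6f) and LP day 28 (4f, 6f and 7f), and values are given in this order throughout. The epithelial keratin gene Krt18 and the fat cell gene Fabp4 were well above background on all 12 arrays. Slide 1 held the arrays of day 21 and slide 2 those of day 28, and age and slide cannot be told apart.

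A level is the log2 processed signal of a probe minus the log2 of the 75th percentile of its array. A level of 0 is therefore a probe at that percentile, and levels of different probes are not set against each other, since probes differ in how strongly they bind. Differences are LP minus NP on the log2 scale with their standard error (SE) from limma, fitted over 23209 probes. The adjusted p is that of Benjamini and Hochberg, taken over the whole set of probes, and the threshold is 0.05.

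The LP array of replicate 6a at day 21 stood apart from the others. Over all probes, its Pearson r with the other arrays had a median of 0.960, and the other 11 arrays had medians of 0.974 to 0.989. It lay more than 2 below the lowest of the other 11 arrays for 362 probes, or 1.56% of those tested, and 6 of the 8 B cell and plasma cell genes were among them, all but Tnfrsf17 and Cxcr5. On the array that came next in this count, NP 4f of day 28, 106 probes did so. The LP against NP differences are therefore given with and without LP 6a. At day 28, leaving it out keeps the difference but alters its SE and p, since the spread is shared. In bulk samples, fewer cells of a type and less RNA per cell cannot be told apart.

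Cd79a and Cd79b encode the signalling chains of the B cell receptor. The level of Cd79a was -1.42, -1.58 and -1.92 in NP rats of day 21, -1.80, -6.53 and -2.30 in LP rats of day 21, -1.18, -1.40 and -1.36 in NP rats of day 28 and -1.47, -1.78 and -3.04 in LP rats of day 28. LP 6a was far below every other array, while LP 4a of the same day lay inside the NP range. At day 28 all LP arrays were below all NP arrays, with LP 7f lowest. The NP mean of day 21 was -1.64 (SD 0.25, n = 3), and LP 6a was 3.48 below the next lowest of the 12 arrays. The difference at day 21 was -1.90 (SE 1.01, p 0.088, adjusted p 0.861 in limma), and without LP 6a it was -0.41 (SE 0.40, p 0.329). At day 28 the difference was -0.78 (p 0.454). Because the spread is shared by all groups of the fit, the same difference of day 28 had a p of 0.055 when LP 6a was left out. Without LP 7f it was -0.31.

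Cd79b pairs with Cd79a in the receptor. Its levels were 1.19, 0.91 and 0.93 in NP and 0.74, -5.34 and 0.27 in LP rats of day 21, then 1.33, 1.37 and 1.12 in NP and 0.85, 0.59 and -0.80 in LP rats of day 28. The pattern was that of Cd79a, with LP 6a far down and LP 7f lowest of day 28, and here the diets did not overlap on either day. Relative to the lowest other array, LP 6a was at -4.54. LP and NP rats of day 21 differed by -2.45 (SE 1.28, p 0.086, adjusted p 0.861 in limma), and by -0.50 (p 0.252) without LP 6a. The day 28 difference of -1.06 had a p of 0.429 with all arrays and of 0.018 without LP 6a (adjusted p 0.420 in limma), and without LP 7f it was -0.55. Both CD79 probes were well above background on all 12 arrays, LP 6a included, so that for these genes the low values of that array are measured levels. Over the 12 arrays the probes had an r of 0.995, and 0.961 without LP 6a.

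Both array sequences lie in the coding part that holds the immunoreceptor tyrosine-based motif, the stretch through which the chains pass on the signal. They are shown because these genes carry the low values of LP 6a at a level above background. Capitals mark TATGANGAC, where N is any base, which includes the codon of a tyrosine of that motif.
Cd79a: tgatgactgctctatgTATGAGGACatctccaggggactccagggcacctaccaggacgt
Cd79b: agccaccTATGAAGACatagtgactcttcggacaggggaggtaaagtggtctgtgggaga
The array annotation places them on rn4 at chr1:80193363-80193422 (plus strand) and chr10:95703614-95703673 (minus strand). The letters TATGANGAC occur on either strand in 75 of the 23209 tested array sequences (0.323%) and in none of the other 6 member probes. A match is a description, not a site or a cause.

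Ms4a1 encodes CD20, a surface protein of B cells that is lost in plasma cells. Levels were -1.96, -1.99 and -2.16 in NP and -2.25, -7.20 and -2.80 in LP rats of day 21, and -2.23, -1.19 and -1.88 in NP and -1.91, -1.81 and -2.66 in LP rats of day 28. LP 6a was not well above background. LP 4a and LP 7c of that day also lay below the NP arrays, LP 4a only just, whereas at day 28 the diets overlapped. The difference at day 21 was -2.05 (SE 1.03, p 0.075, adjusted p 0.861 in limma), and -0.49 (p 0.181) without LP 6a. At day 28 it was -0.36 (p 0.734, and 0.262 without LP 6a). That value rested on single arrays, since it was -0.07 without NP 5f, -0.09 without LP 7f and -0.59 without NP 4f.

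Cr2 encodes complement receptor 2, which lowers the threshold of the B cell receptor for antigen that carries complement and is also made by follicular dendritic cells. Its levels were -1.82, -2.14 and -1.93 in NP and -1.65, -8.35 and -2.24 in LP rats of day 21, and -1.40, -1.22 and -1.45 in NP and -1.43, -1.81 and -2.60 in LP rats of day 28. LP 4a of day 21 had the highest level of its day and LP 6a, not well above background, the lowest, so that the diets overlapped on day 21, as they did on day 28. The difference of day 21, -2.11 (SE 1.38, p 0.156, adjusted p 0.862 in limma), rested on LP 6a, without which it was 0.02 (p 0.949). At day 28 the difference was -0.59 (p 0.676, and 0.060 without LP 6a), and -0.26 without LP 7f.

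Blk encodes a kinase of the Src family that phosphorylates the tails of the CD79 chains. Levels were -3.07, -3.01 and -2.83 in NP and -3.43, -8.89 and -3.72 in LP rats of day 21, and -3.06, -3.21 and -3.58 in NP and -3.60, -3.49 and -4.13 in LP rats of day 28. All LP arrays of day 21 were below all NP arrays of that day, with LP 6a not well above background, and at day 28 the diets overlapped between NP 6f and LP 6f. The difference at day 21 was -2.38 (SE 1.14, p 0.063, adjusted p 0.861 in limma). Without LP 6a it was smaller, -0.61, and its SE fell from 1.14 to 0.22, so that the unadjusted p was 0.021 (adjusted p 0.9998 in limma). At day 28 it was -0.45 (p 0.698, and 0.045 without LP 6a), and -0.26 without LP 7f.

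Cxcr5 encodes the receptor for CXCL13, which guides B cells and follicular helper T cells into follicles. Levels were -5.43, -5.37 and -5.75 in NP and -5.75, -7.82 and -6.63 in LP rats of day 21, and -5.86, -5.12 and -5.98 in NP and -5.76, -6.06 and -6.59 in LP rats of day 28. This probe was near background: LP 6a and LP 7c of day 21 and LP 7f of day 28 were not well above it, and LP 4a was 0.01 below the lowest NP array of day 21. The difference at day 21 was -1.22 (SE 0.45, p 0.023, adjusted p 0.861 in limma), and without LP 6a it was -0.68 (p 0.082). With limma's normexp background it was -0.22. That setting starts from the mean signal and median background of each spot, in place of the processed signal. It adds an offset of 50 to all signals. At day 28 the diets overlapped, with a difference of -0.48 (p 0.312, and 0.154 without LP 6a), which was -0.22 without NP 5f and -0.26 without LP 7f.

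Tnfrsf13c encodes the BAFF receptor, on which mature B cells depend for survival. Levels were -2.63, -2.99 and -2.67 in NP and -3.00, -8.84 and -3.62 in LP rats of day 21, and -2.43, -2.35 and -2.49 in NP and -2.64, -3.11 and -3.74 in LP rats of day 28. The diets did not overlap on either day, although LP 4a of day 21 was only 0.01 below the lowest NP array. LP 6a was not well above background, and LP 7f was again lowest of its day. The difference at day 21 was -2.39 (SE 1.20, p 0.074, adjusted p 0.861 in limma), and without LP 6a it was -0.54 (p 0.098). At day 28 it was -0.74 (p 0.549), with a p of 0.020 without LP 6a (adjusted p 0.424 in limma), and -0.45 without LP 7f. This gene and Tnfrsf17 had 1 spot per array, so that no second spot checks their values.

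Tnfrsf17 encodes BCMA, the receptor for APRIL and BAFF on plasma cells, and it is the member most tied to plasma cells. Its levels were -6.20, -4.99 and -6.73 in NP and -8.17, -8.62 and -8.28 in LP rats of day 21, and -5.08, -4.71 and -5.04 in NP and -4.84, -3.70 and -5.57 in LP rats of day 28. The pattern was not that of the other members. At day 21 LP 4a and LP 7c were as low as LP 6a, all of them not well above background, whereas all NP arrays were. At day 28 all arrays were well above background, LP 6f was highest and the diets overlapped. LP and NP rats of day 21 differed by -2.38 (SE 0.49, p 0.001, adjusted p 0.861 in limma), and by -2.25 (p 0.003, adjusted p 0.9998 in limma) without LP 6a. At day 28 the difference was 0.24 (p 0.642, and 0.652 without LP 6a), and it was -0.26 without LP 6f and 0.67 without LP 7f. The interaction of diet with day was 2.62 (SE 0.70, p 0.004, adjusted p 0.9999 in limma), and 2.49 (p 0.010) without LP 6a. With the normexp background, 0 of the 8 members, and so not Tnfrsf17, had an unadjusted p under 0.05 for this interaction.

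Because no LP array of day 21 was well above background for Tnfrsf17, the size of its difference depends on how dim signals are treated. With each LP array set to a floor, the lowest signal of a single spot that passed as well above background there, the LP mean was -6.66 in place of the measured -8.36. Against the NP mean of -5.97, the LP level of Tnfrsf17 at day 21 was thus lower by at least 1.61-fold with that floor, and another floor would give another bound. This bound was 1.60-fold without LP 6a, and it ranged from 1.15-fold without NP 5a to 2.10-fold without NP 6a. With the normexp background the fitted difference was -0.38 (p 0.082). On the same footing, the level in LP rats was at least 3.89-fold higher at day 28 than at day 21.

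**Figure D1:**
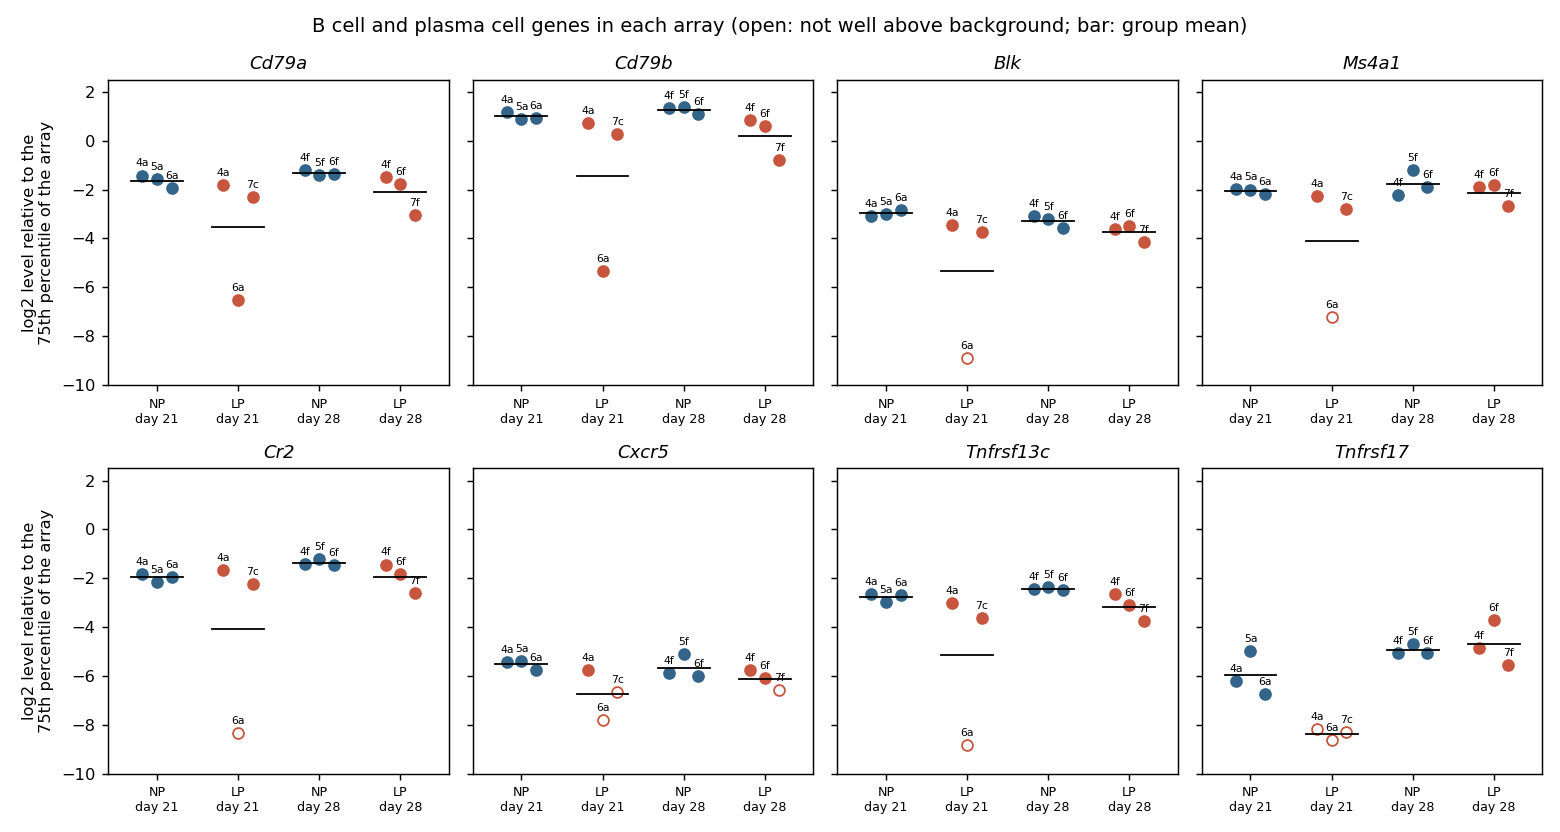
Level of each of the 8 measured B cell and plasma cell genes on each array, with open circles for values not well above background. LP 6a of day 21 is low for all but Tnfrsf17, for which all LP arrays of day 21 are low.

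At day 21, 2 of the 8 members had an unadjusted p under 0.05, Tnfrsf17 and Cxcr5, where 4.36% of all tested probes did. The paper lists Tnfrsf17 among its top down-regulated genes of day 21 from these same arrays. Counts of members that hold Tnfrsf17, here and between the days, are therefore not independent of that earlier result. With limma's adjusted p under 0.05 the count was 0 of 8 members and 0% of all probes (0 of 23209, with 1011 at an unadjusted p under 0.05), and the lowest adjusted p of any probe was 0.163. Without LP 6a, 2 members had an unadjusted p under 0.05, Tnfrsf17 and Blk, against 2.08% of all probes. The count rested on single arrays: it was 8 without LP 4a, 7 without LP 7c, and 1 without NP 4a or without NP 5a. Over all 23209 probes the count moved as well, from 1011 to 1963 without LP 4a and 2004 without LP 7c. It was 681 without NP 4a and 1329 without NP 5a. LP 4a had the highest level among the LP arrays of day 21 for all 8 members. All LP arrays were below all NP arrays of day 21 for 6 members, all but Cd79a and Cr2, against 5.95% of all probes. With LP 6a left out the same 6 members were below, against 8.23% of all probes.

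At day 28, 0 of the 8 members had an unadjusted p under 0.05 in limma, where 8.07% of all tested probes did, and 0 had an adjusted p under 0.05. The lowest adjusted p of any probe was 0.581. Without LP 6a of day 21, which widens the spread that the groups share, 3 members had an unadjusted p under 0.05 at day 28, Cd79b, Blk and Tnfrsf13c, against 11% of all probes. All LP arrays were below all NP arrays of day 28 for 3 members, Cd79a, Cd79b and Tnfrsf13c, against 12.4% of all probes. LP 7f was the lowest array of day 28 for all 8 members, against 25.4% of all probes. Without both LP 6a and LP 7f, a pair chosen after seeing the data, 1 member had an unadjusted p under 0.05 at day 28, Cd79b (p 0.014, adjusted p 0.782 in limma), where 1336 of 23209 probes did, and Tnfrsf13c had a p of 0.069. In some lists of other cells, most genes also shared a direction of the LP against NP difference at day 28. No list was tested as a set, and the part of these cells in the result was not tested. Of the tested genes, 17 of 17 of T cells and 7 of 7 of all leukocytes had the lower mean in LP rats. Of these, 14 and 5 had an unadjusted p under 0.05 without LP 6a (0 of each with all arrays in limma). Of 12 epithelial genes, 11 had the higher mean, with 0 at an unadjusted p under 0.05 in limma. The other, Trp63, was lower (-0.40, p 0.019 in limma, with all arrays and without LP 6a).

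Between the days, the members other than Tnfrsf17 gave smaller values. In NP rats, 0 of the 8 members had an unadjusted p under 0.05 in limma for day 28 against day 21, where 12.8% of all probes did, and 0 had an adjusted p under 0.05, where 0.25% did. The member count was 1 without NP 5a of day 21, and 1 without LP 6f or without LP 7f of day 28. In LP rats the count was 1, Tnfrsf17, against 10.1% of all probes. Its measured difference was 3.65 (SE 0.49, adjusted p 0.088 in limma), and without LP 6a it was 3.52 (adjusted p 0.326 in limma). No LP array of day 21 was well above background for this gene. Its size is therefore known only as the bound of 3.89-fold given above. The count in LP rats was 7 without LP 4a and 2 without LP 7c of day 21. For the change of the LP against NP difference between the days the count was 1, Tnfrsf17, against 2.26% of all probes, and it was 2 without LP 4a of day 21. No share over all probes is given for these counts with an array left out. Whether their moves are particular to the members was not tested.

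The mean level of the 8 members per array was -2.67, -2.65 and -2.88 in NP and -3.17, -7.70 and -3.66 in LP rats of day 21, and -2.49, -2.23 and -2.58 in NP and -2.60, -2.65 and -3.64 in LP rats of day 28. LP 6a of day 21 was lowest by far, and LP 7c of day 21 and LP 7f of day 28 were next. All LP means were below all NP means on both days, by a small margin for LP 4f and LP 6f. LP minus NP was -2.11 at day 21, -0.68 without LP 6a and -1.01 with the normexp background, and -0.53 at day 28 and -0.19 without LP 7f. Without Tnfrsf17, whose LP values of day 21 are at background, the mean of the other 7 members differed by -2.07 at day 21 and -0.46 without LP 6a, and by -0.64 at day 28 and -0.31 without LP 7f. With the normexp background the day 21 differences of the members were smaller, from -2.04 for Cd79b to -0.22 for Cxcr5, with -0.95 for Cr2, -1.01 for Tnfrsf13c, -1.03 for Blk, -1.18 for Ms4a1 and -1.28 for Cd79a. At day 28 the mean member difference with that background was -0.40. Cxcr5 went from -0.48 to -0.087 and Blk from -0.45 to -0.19, while Cd79b went from -1.06 to -1.13.

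On each slide, the lower of the array rows held 2 LP arrays and no NP array: LP 6a and LP 7c of day 21, and LP 6f and LP 7f of day 28. The upper row held all 3 NP arrays and 1 LP array of each day, LP 4a and LP 4f. Within the upper row, LP 4a was below the NP mean for 7 of 8 members at day 21, with differences of -0.17 for Cd79a and -2.20 for Tnfrsf17, and above it by 0.31 for Cr2. LP 4f was below the NP mean for 7 of 8 members at day 28, with differences from -0.42 for Cd79b to 0.10 for Tnfrsf17. The mean difference over the 8 members within the upper row was -0.43 at day 21 and -0.17 at day 28. Without Tnfrsf17, which was not well above background on LP 4a, it was -0.18 at day 21 and -0.21 at day 28. With the row as a covariate, 8 of 8 members were lower in LP rats at day 21, from -2.36 for Tnfrsf17 (p 0.005, adjusted p 0.999 in limma) to -0.54 for Cxcr5, and 0 of 8 were lower at day 28, from 0.19 to 0.88 with a lowest p of 0.588. The row effect in this fit is shared by both days, so that LP 6a of day 21 enters the values of day 28, where the LP array of the upper row was itself below the NP mean for 7 of 8 members. The part of the array row in the differences was not tested further.

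The members moved together across arrays, and Tnfrsf17 less so. Pearson r between members was 0.846 to 0.995 for the 21 pairs without Tnfrsf17 and 0.511 to 0.637 for the 7 pairs with it, over 12 arrays. Without LP 6a the ranges were 0.388 to 0.961 and 0.055 to 0.620. Cr2 and Blk had the lowest r of the 21 pairs without LP 6a, and Cd79a and Cd79b the highest.

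Outside the members, the 10 genes most like the mean of the 8 members were taken by Pearson r over the 12 arrays, among 17510 genes. They were Gpr18 (r 0.995, Spearman rho 0.944), Fcrla (r 0.994, rho 0.909), Pou2af1 (r 0.994, rho 0.923), P2ry10 (r 0.992, rho 0.888), Lax1 (r 0.992, rho 0.930), RT1-DOb (r 0.991, rho 0.860), a predicted gene without a symbol (r 0.993, rho 0.944), and probes of the immunoglobulin gamma-2B chain (r 0.994 and 0.994, rho 0.958 and 0.916) and delta chain (r 0.992, rho 0.965). Without LP 6a, r over 11 arrays was 0.907 to 0.943 for these genes. Without the 2 arrays farthest from the mean, LP 6a and LP 7c of day 21, r over 10 arrays was highest for Fcrla (0.959, rho 0.855) and Gpr18 (0.941, rho 0.915) and lowest for Lax1 (0.870, rho 0.879). On LP 6a, Gpr18 had a level of -3.13, against -0.37 to 0.63 on the other arrays, and Pou2af1 one of -3.83, against 0.55 to 1.70.

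The antibody chains are the main product of B cells and plasma cells. Of 16 probes named for an immunoglobulin heavy, light or joining chain, 13 were tested. LP 6a was the lowest array of day 21 for 13 of these 13, by more than 1 for 11, and LP 7f was the lowest array of day 28 for 13 of 13. LP rats had the lower mean for 13 at day 21, with differences from -2.43 to -1.33 and a median of -1.96, and the median was -0.42 without LP 6a, with 13 again lower. At day 28 the mean was lower for 10, with a median of -0.69. LP 7f, the lowest array of that day for all 13, enters these values, and without it each difference would be less negative. The median without LP 7f is not given here. The median over all tested probes was 0.01 at day 21 and -0.05 at day 28. At day 21, 2 of the 13 had an unadjusted p under 0.05, and 1 without LP 6a, and at day 28 the count was 1, and 4 without LP 6a. Over all tested probes the shares were 4.36% and 2.08% at day 21, and 8.07% and 11% at day 28. In limma 0 of the 13 had an adjusted p under 0.05, and their lowest was 0.861 at day 21 and 0.581 at day 28.

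The 4 antibody probes with the strongest mean signal were for gamma-2B (in 2 probes), lambda-2 and an IgG heavy chain. The first gamma-2B probe had levels of 3.76, 3.54 and 3.32 in NP and 3.35, -1.96 and 2.84 in LP rats of day 21, and 3.78, 4.10 and 3.78 in NP and 3.56, 3.32 and 2.38 in LP rats of day 28. The second gamma-2B probe differed by -2.28 at day 21 (p 0.066), and by -0.57 (p 0.052) without LP 6a. The lambda-2 probe was at -3.21 on LP 6a and between 2.61 and 3.47 on the other arrays of day 21. The IgG heavy chain probe had levels of 1.25, 2.31 and -0.18 in NP and 1.19, -4.45 and -0.47 in LP rats of day 21, and 2.96, 3.96 and 2.88 in NP and 3.88, 2.06 and 1.07 in LP rats of day 28. LP 6a was the lowest array of day 21 for each of them. LP 7c also lay below all NP arrays of that day for all 4, whereas LP 4a overlapped with the NP arrays for all 4.

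The IgA heavy chain, singled out after its values were seen, had another pattern. Its levels were -1.25, 0.06 and -1.66 in NP and -3.38, -3.58 and -1.78 in LP rats of day 21, and -0.34, -0.00 and -0.11 in NP and -1.24, -2.76 and -3.20 in LP rats of day 28. All LP arrays were below all NP arrays on both days, and LP 6a was only 0.20 below LP 4a. The difference was -1.96 at day 21 (SE 0.62, p 0.011, adjusted p 0.861 in limma) and -1.63 (p 0.042) without LP 6a, and it was -2.25 at day 28 (SE 0.62, p 0.005, adjusted p 0.581 in limma, and p 0.005 without LP 6a). Within the upper array row, the difference from the NP mean was -2.43 for LP 4a at day 21 and -1.09 for LP 4f at day 28. With the row as a covariate the differences were -1.61 (p 0.069) and -1.91 (p 0.037). This chain was measured by 1 spot per array, which was well above background on all 12.

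The delta chain of IgD, made by naive B cells, and the joining chain of IgA and IgM, made by plasma cells, were also singled out after their values were seen. IgD had levels of -3.19, -3.10 and -3.13 in NP and -3.30, -8.73 and -3.81 in LP rats of day 21, and -2.79, -2.82 and -2.98 in NP and -3.06, -3.17 and -4.45 in LP rats of day 28. The joining chain had levels of -3.83, -3.02 and -4.45 in NP and -3.89, -8.53 and -4.29 in LP rats of day 21, and -3.20, -2.29 and -2.65 in NP and -3.02, -2.57 and -4.60 in LP rats of day 28. LP 6a was not well above background for either, and LP 7f was lowest of day 28 for both. For IgD the diets did not overlap on either day, and for the joining chain they overlapped on both.

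LP 6f of day 28, the array with the highest Tnfrsf17 level of the 12, also stood out in some antibody probes. A rearranged lambda chain was at 1.76 on LP 6f and between -4.03 and -1.95 on the other arrays of day 28, and another gamma-2B probe was at 0.81 on LP 6f and between -3.83 and -1.82 on those arrays. Both were singled out after their values were seen, and both had 1 spot per array.

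**Figure D2:**
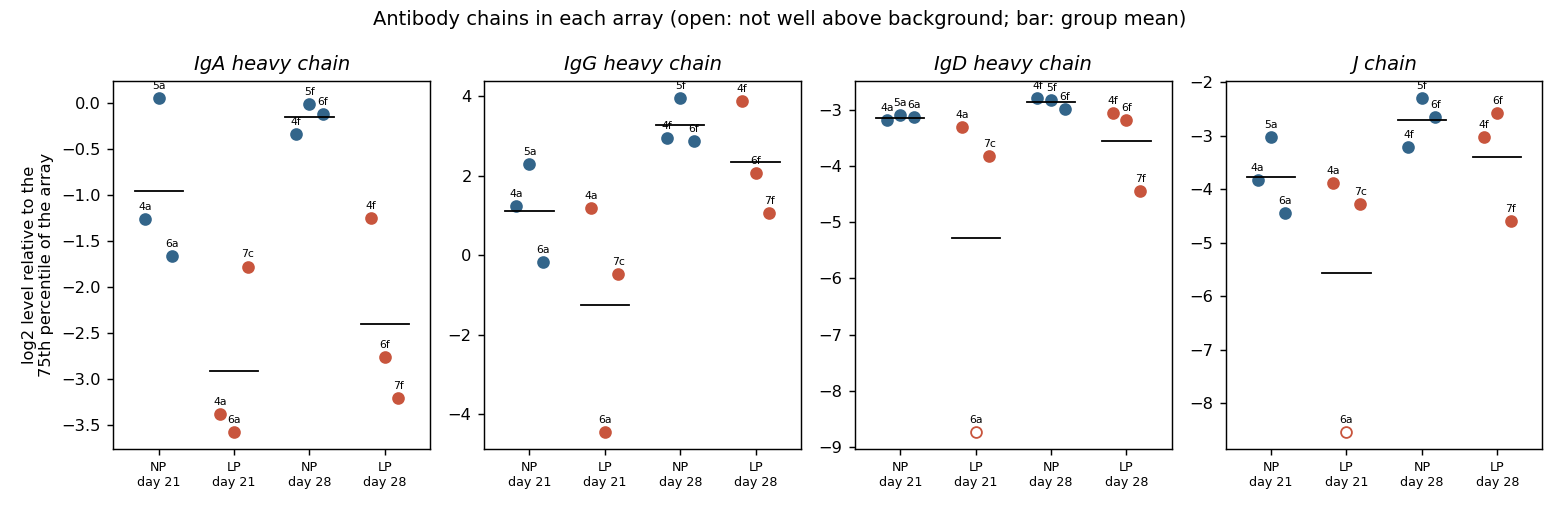
Levels of antibody chains on each array, with open circles for values not well above background. The IgA heavy chain is lower on all LP than on all NP arrays of both days, and LP 6a of day 21 lies far below the other arrays of its day for the other chains.

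Other B cell genes had a pattern like that of most members. Of the list of B cell receptor coreceptors and surface proteins, 13 of 14 genes were tested, and 13 of 13 had the lower mean in LP rats on both days, with medians of -1.19 at day 21, -0.36 without LP 6a, and -0.51 at day 28. LP 7f was the lowest array of day 28 for 10 of these 13 genes. Medians of the gene lists at day 28 were not taken without LP 7f. Over all tested probes, LP rats had the lower mean for 47.8% at day 21 and 57.3% at day 28. Cd40, the receptor for help from T cells, was the gene of this list with an unadjusted p under 0.05 at day 21, at -0.66 (SE 0.21, p 0.010, adjusted p 0.861 in limma), and -0.39 (p 0.020) without LP 6a. Cd83 and Fcrla differed by -1.11 and -1.66 at day 21, and by -0.33 and -0.37 without LP 6a.

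Of the genes that carry the signal of the B cell receptor, 14 of 15 were tested and 14 of 14 had the lower mean in LP rats at day 21, with a median of -0.85, and of -0.32 without LP 6a. At day 21, 7 had an unadjusted p under 0.05, with differences from -0.99 to -0.71: Syk, Dapp1, Btk, Inpp5d, Blnk, Malt1 and Pik3ap1. Without LP 6a there were 3, Syk, Dapp1 and Btk. Over all tested probes the shares were 4.36%, and 2.08% without LP 6a. Syk, the kinase that binds the phosphorylated CD79 tails, differed by -0.99 (p 0.022), and by -0.46 (p 0.026) without LP 6a, and Btk by -0.82 (p 0.037) and -0.31 (p 0.042). Ptpn6 and Prkcb differed by -0.84 and -0.86, and by -0.23 and -0.09 without LP 6a. At day 28, 13 of 14 were lower, with a median of -0.40 and 0 under an unadjusted p of 0.05, and 8 without LP 6a of day 21, where the shares over all probes were 8.07% and 11%. In limma 0 genes of these lists had an adjusted p under 0.05.

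Of the B cell transcription factors, 9 of 11 were tested. LP rats had the lower mean for 8 at day 21 (median -0.97, and -0.31 without LP 6a) and for 9 at day 28 (median -0.53). At day 28, 0 of the 9 had an unadjusted p under 0.05 in limma with all arrays, and 6 without LP 6a of day 21, where the shares over all probes were 8.07% and 11%. Ikzf3, which acts late in the B lineage, differed by -1.71 at day 21 (p 0.031), and by -0.67 (p 0.012) without LP 6a, and Id3 by -0.70 (p 0.017), and by -0.48 (p 0.072). Pou2af1 and Spib differed by -2.04 and -1.97, and by -0.49 and -0.34 without LP 6a. Ebf1, which is active in fat cell precursors as well as in B cells, had a difference of -0.14 at day 21 (p 0.399), and of -0.05 without LP 6a, and LP 6a was only 0.18 below the lowest other array of that day.

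Of the BAFF and APRIL system, 6 of 8 genes were tested, with medians of -0.28 at day 21, -0.13 without LP 6a, and -0.24 at day 28. Map3k14, the kinase that the BAFF receptor acts through, had levels of -2.22, -2.15 and -1.91 in NP and -2.45, -3.62 and -2.65 in LP rats of day 21, and -2.11, -2.06 and -2.41 in NP and -2.66, -2.68 and -2.76 in LP rats of day 28. The diets did not overlap on either day. The difference was -0.82 (SE 0.26, p 0.010) at day 21, -0.46 (p 0.010) without LP 6a, and -0.51 at day 28 (p 0.076, and 0.003 without LP 6a of day 21). The ligand gene Tnfsf13, which encodes APRIL, differed by -0.12 at day 21, and by 0.03 without LP 6a. Nfkb2, Traf2 and Traf3 differed by -0.54, -0.29 and -0.27 at day 21, and by -0.23, -0.16 and -0.09 without LP 6a.

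Of the genes used by plasma cells, 9 of 12 were tested, and they did not share a direction: 4 had the lower and 5 the higher mean in LP rats at day 21 (median 0.06, and 0.09 without LP 6a). The joining chain, whose probe has another name, is not counted in this list. It differed by -1.80 at day 21, by -0.32 without LP 6a, and by -0.68 at day 28. Slamf7 was the gene of this list with an unadjusted p under 0.05 at day 21, at -1.19 (p 0.029), and -0.58 (p 0.088) without LP 6a. At day 28 Xbp1 (0.45, p 0.013, and 0.008 without LP 6a) and Ell2 (0.44, p 0.009, and 0.012) were higher in LP rats at an unadjusted p under 0.05, with adjusted p not under 0.581 in limma. Without LP 6a, 2 genes of the list were also lower in LP rats of day 28 at an unadjusted p under 0.05, Slamf7 (-0.65, p 0.040) and Irf4, which was named after its values were seen. Sdc1 and Xbp1, which are also active in epithelium, had their highest levels of day 21 on LP 6a, 3.54 and 2.21. Fkbp11 differed by 0.24 at day 21, and by 0.21 without LP 6a. Derl3 differed by -0.32, a direction that rested on LP 6a, since without that array it was 0.05.

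Of the germinal centre genes, 5 of 6 were tested, and LP 6a was the lowest array of day 21 for 0 of them and the highest for 3. At day 21, 2 of the 5 had an unadjusted p under 0.05, both higher in LP rats, against 4.36% of all probes. They were Ung (0.34, p 0.029) and Rgs13 (0.43, p 0.042), both with an adjusted p of 0.861 in limma. Without LP 6a the count was 0, against 2.08% of all probes, with Ung at 0.29 (p 0.088) and Rgs13 at 0.40 (p 0.093). Rgs13 was well above background on 11 of 12 arrays. Which cells of the gland the signals of this list come from was not tested. Bcl6 and S1pr2 differed by -0.17 and -0.14 at day 21, and by -0.29 and -0.31 without LP 6a.

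Of the genes for follicle and lymph node homing, 16 of 16 were tested, and the median difference was -1.08 at day 21, -0.16 without LP 6a, and -0.58 at day 28. At day 28, 0 of the 16 had an unadjusted p under 0.05 in limma with all arrays, and 8 without LP 6a of day 21. Over all probes the shares were 8.07% and 11%. At day 21 the count was 0 with and without LP 6a. Ccl19, a chemokine of lymph node stroma, had levels of 4.55, 3.82 and 3.98 in NP and 3.93, -2.28 and 3.83 in LP rats of day 21. LP 6a was at -6.10 relative to the next array of its day, and the other LP arrays overlapped with NP. Ccl21, another chemokine of lymph node stroma, was at 1.78 on LP 6a, against 3.71 to 4.43 on the other arrays of day 21, and at 2.78 on LP 7f, against 3.99 to 4.62 on the other arrays of day 28. At day 28 Ccl19 was 4.49, 4.60 and 3.99 in NP and 3.85, 3.91 and 4.67 in LP rats, so that LP 7f, low for Ccl21, was the highest array for Ccl19. At day 21 Cxcl12 differed by -0.22 with LP 6a and by -0.01 without it, and Ltbr by 0.20 and 0.13.

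Markers of other cells moved with the members on LP 6a, and their part in the result was not tested. All 17 tested T cell genes were lowest on LP 6a among the arrays of day 21, each by more than 1, and their mean level was -5.08 on LP 6a, against -0.21 to 0.19 on the other arrays of that day. By array it was 0.19, 0.15 and 0.16 in NP and 0.15, -5.08 and -0.21 in LP rats of day 21, and 0.56, 0.42 and 0.08 in NP and -0.07, -0.07 and -0.57 in LP rats of day 28. Cd3d, whose probe gave the strongest signal of the list, was at -3.04 on LP 6a and between 2.58 and 3.03 on the other arrays of day 21, Cd3g was at -4.48, and 4 of the 17 genes were not well above background on LP 6a. Among the members, 6 of 8 were not. Over all tested probes, 4.12% were lowest on LP 6a by more than 1 within day 21, while 27% were lowest there by any amount and 26.8% highest.

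The list of genes that all leukocytes share had a mean of 0.52 on LP 6a, against 2.99 to 3.48 on the other arrays of day 21, and 7 of its 7 genes were lowest there, with Laptm5 at 2.33. The mean of the MHC class II list was -1.07, against 0.34 to 1.15, with 8 of 8 genes lowest and Cd74 at 2.09. The homing list was at -2.60, against 0.19 to 0.57, with 15 of 16 lowest. Within that list, Ltbr was highest on LP 6a, at 3.30. The neutrophil list was at -5.01, against -3.27 to -2.94, with 7 of 8 genes lowest and S100a9 at -3.40, and the NK cell list at -4.47, against -3.51 to -2.62, with 5 of 7 lowest and Prf1 at -4.24.

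The macrophage list had a mean of -0.78 on LP 6a, against 0.17 to 0.43 on the other arrays of day 21, with 8 of 11 genes lowest but 1 by more than 1, and C1qb at 3.68. The mast cell mean of 0.53 lay inside the range of the other arrays of day 21 (0.19 to 0.78), as did that of fat cells, 2.47 (2.25 to 2.75). Of 12 epithelial genes, 11 were highest on LP 6a, with a mean of 1.75, against -0.22 to 0.99, and Krt18 at 4.78.

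On LP 7f of day 28, the lists of T cells, all leukocytes and homing were the lowest of the day, by less than on LP 6a. The T cell mean was -0.57, against -0.07 to 0.56 on the other arrays of that day, with 15 of 17 genes lowest, and that of all leukocytes was 2.62, against 3.05 to 3.53. The homing mean was -0.28, against 0.27 to 0.80. The macrophage mean, 0.40, lay inside the range of the other arrays, and the NK cell mean, -1.16, lay above it (-2.89 to -2.04). The part of these cells in the low member levels of LP 7f was not tested.

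**Figure D3:**
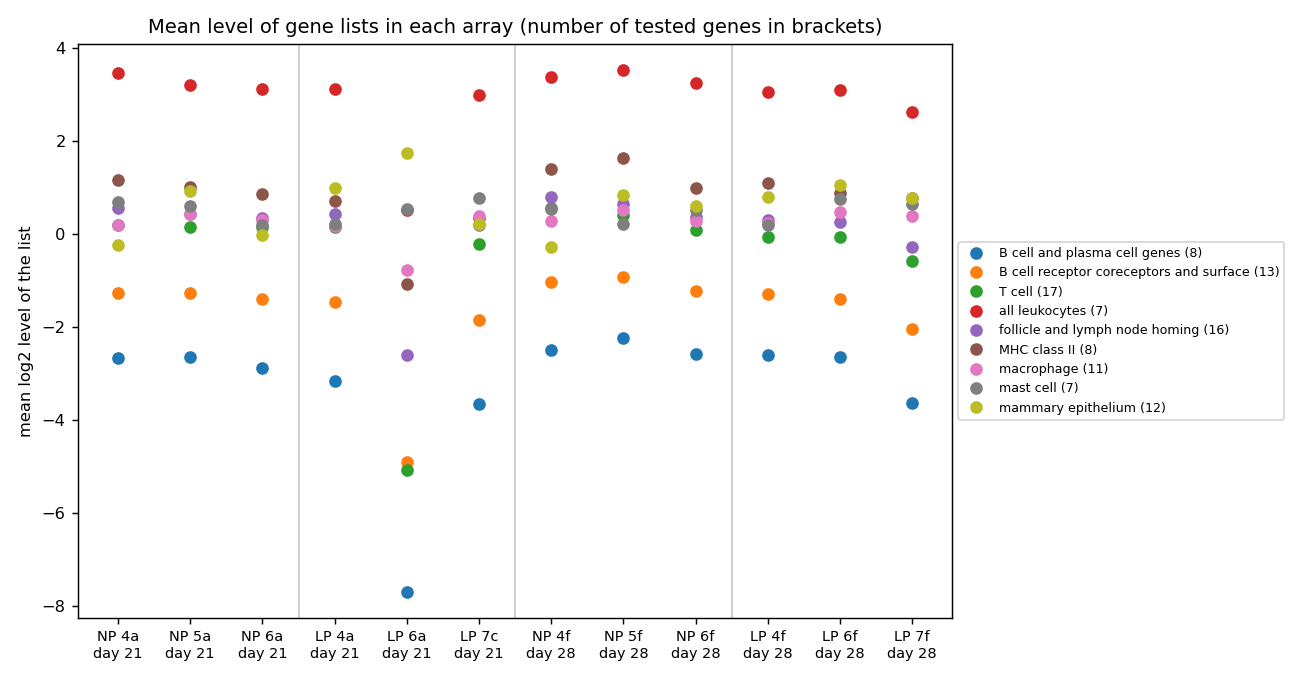
Mean level of the 8 B cell and plasma cell genes and of lists of marker genes on each array. LP 6a of day 21 is low for B cell, T cell, leukocyte and homing genes and high for epithelial genes.

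Of the 9 members, 4 have a promoter in the RefSeq table of the GRCr8 build, Cd79a, Cr2, Tnfrsf13c and Tnfrsf17, each from 250 bases before to 50 after the start of the gene. The promoter of Cd79a, also called mb-1, is shown because it is a classic target of the B cell factor EBF1. It lies at chr1:89621210-89621509 on the plus strand of GRCr8, and capitals mark AAGGGAAT, the letters of the EBF1 site known from that promoter.
Cd79a promoter: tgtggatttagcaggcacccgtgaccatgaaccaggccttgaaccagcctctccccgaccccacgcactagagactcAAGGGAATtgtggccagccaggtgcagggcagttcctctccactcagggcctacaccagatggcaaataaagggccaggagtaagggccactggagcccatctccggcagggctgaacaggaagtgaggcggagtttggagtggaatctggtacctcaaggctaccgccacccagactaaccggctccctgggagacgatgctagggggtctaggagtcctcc
The letters AAGGGAAT begin at base 78 of this stretch, and they occur on either strand in 530 of 33469 promoters of the table (1.58%) and in none of the other 3 member promoters. The octamer ATTTGCAT, read by the factors that work with Pou2af1, is in 595 promoters (1.78%) on either strand and in 0 of the 4. A match is a description, and the lack of one says only that these letters are not in this window.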

How the data were processed

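The authors deposited, per the file headers, the processed signal of Agilent Feature Extraction 10.7.3.1 for every spot, an intensity after background subtraction and correction of trends within the array, with no scaling between arrays. They also deposited a table of the signal of each array divided by its median.

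From the scanner values, control spots (4259) and spots marked as outliers (259 to 766 per array) were left out, the log2 of the array's 75th percentile was subtracted from each log2 signal, and spots of a probe were averaged. Of 30367 probes, 23209 were well above background (in at least 0.5 of their spots) on at least 3 of 12 arrays and entered the test, lmFit and eBayes of limma (version 3.58.1, under R 4.3.3) with 4 groups in 1 fit, with Benjamini-Hochberg adjustment over all of them. The error model of Rosetta Resolver, which the paper used, was not repeated.

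The members and the lists were chosen with earlier results of these data known. The genes named are every member, up to 4 genes of each other list by strength of signal, every gene of the B cell, plasma cell, germinal centre, BAFF and homing lists with an unadjusted p under 0.05, the 10 genes most like the mean of the members, and the 4 strongest antibody probes. Exceptions are named in the text. Single genes of the lists that this rule would name may be left out of the text, and the counts and medians still hold them. Python 3.11.15, pandas 2.3.3, numpy 2.4.6, matplotlib 3.10.9 and data.table (version 1.17.8) were used.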

Additional observations from a re-analysis of the deposited data

How the results depend on the processing

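Over 9 other settings of the processing, 12 fits with an array left out and 1 fit without a pair of arrays, the members' LP against NP differences gave 170 values per day. Some settings, such as leaving out an array of the other day, cannot move a difference. Of the values that were not the same as the reported ones, 94 of 96 at day 21 and 86 of 96 at day 28 kept direction, and 2 and 10 did not. Under these settings 0 members had an adjusted p under 0.05 in limma, which says nothing about stability, since 0 did in the reported fit. The setting without both LP 6a of day 21 and LP 7f of day 28 was chosen after seeing the data. Where no reason is given, the cause was not tested.

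Members under an unadjusted p of 0.05 numbered 2 at day 21 and 0 at day 28. With only the probes that were well above background on each of the 12 arrays, which leaves 2 members, the count at day 21 was 0, as were those for the change between the days and for the days in LP rats. That fit had 877 probes under 0.05 at day 21. With only the arrays of the day the member count was 1 at day 21 and 2 at day 28, where 962 and 1734 of all probes were under 0.05. Without both low LP arrays it was 4 at day 21, 1 at day 28 and 2 for the days in NP rats. With the normexp background it was 3 at day 21, where 810 of all probes were under 0.05, 0 for the change between the days and 1 for the days in NP rats. Tnfrsf17 was not among the 3 of day 21 in that fit. For the comparisons between the days, no count over all probes is given here under these settings. Leaving out each array in turn gave 1 to 8 members at day 21, 0 to 3 at day 28, 1 to 2 for the change, 0 to 1 for the days in NP rats and 1 to 7 for the days in LP rats.

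Over all probes, leaving out each array gave 482 (without LP 6a) to 2004 (without LP 7c) probes with an unadjusted p under 0.05 at day 21, in place of 1011, with 618 without NP 6a and 1963 without LP 4a, and 883 (without LP 7f) to 3424 (without NP 6f) at day 28, in place of 1873, with 1228 without NP 4f. Without both low LP arrays there were 531 at day 21.

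With the array row as a covariate, 1 member was under 0.05 at day 21, and 524 probes at day 21 and 835 at day 28 were. At day 28 it turned the mean member difference to 0.49 and those of Cd79a to 0.40, Cd79b to 0.35, Ms4a1 to 0.66, Cr2 to 0.88, Cxcr5 to 0.19, Blk to 0.57 and Tnfrsf13c to 0.60. Only LP arrays lay in the lower row, and the row effect is shared by both days, so that LP 6a of day 21 enters the values of day 28.

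With the replicate label, number and letter, as a replicate block, 1 member was under 0.05 at day 21. Of all probes, 1665 were at day 21 and 806 at day 28. The mean member difference of day 28 was -0.088, and Ms4a1 (0.20) and Cxcr5 (0.0071) turned at day 28. Same-numbered arrays correlated at 0.09 to 0.13 in 4 pairs, 1 of them over 0.1, and 3 of 4 correlated best with their own number. These r are of another quantity than the levels over all probes, for which the lowest r between arrays was 0.932. The diet was given to the mothers, so that a same-numbered NP and LP array are not from the same litter. No label says what the number marks. Whether arrays of the same diet and number but of different days share a litter is not stated and was not tested.

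Without LP 6a the Cr2 difference of day 21 was 0.020 (also 0.020 without both low LP arrays), the highest of a range from -3.33, and the endothelium list's median was 0.016. Tnfrsf17 at day 28 ranged from -0.26 without LP 6f to 0.67 without LP 7f. Another probe of the same gene was not run as an alternative, since each member had 1 probe.

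Signal over background limits Tnfrsf17 and Cxcr5 most: 3 of 12 arrays were not well above background for each. For 6 of 8 members LP 6a was not, so that the distance of that array is uncertain for these. Between 74.8% and 79.6% of gene spots were well above background.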

Other observations

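Skeletal muscle genes varied between arrays in another order than the members. The mean level of 8 such genes was 3.08 on LP 6a, the highest of day 21, against -4.48 to 2.65 on the other arrays of that day. Mylpf was at 4.93 on LP 6a and at 4.76 on LP 6f of day 28.

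On LP 7f of day 28, the array with the lowest member levels of its day, the NK cell gene Gzma was at 0.62 and Nkg7 at 0.57. On the other arrays of day 28 Gzma was between -3.18 and -1.99 and Nkg7 between -1.87 and -1.51.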
